A study of Mus musculus with 12 samples.

Results

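miR-291b is a hairpin of the miR-290 cluster, and the members described are the 2 mature arms cut from it, mmu-miR-291b-5p and mmu-miR-291b-3p, out of the 1978 mature miRNAs in the count files. They were chosen by their measured levels, which were far higher in trophoblast than in embryonic stem cells while the rest of the cluster was not. The difference between these cell types is therefore described with no test. The comparisons of paused with control cells were not used in that choice and are tested, on the same libraries.

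The groups were paused TSC, control TSC, paused ESC and control ESC. TSC are mouse trophoblast stem cells, the stem cells of the placental lineage. ESC are mouse embryonic stem cells, here from E14, an established line. Paused cells of either kind had mTOR, a growth-promoting kinase, inhibited to bring on a dormant state, and control cells are those the labels call WT. The labels give no inhibitor, dose or duration of the treatment and no name for the TSC line, and ESC are 1 line. Each group has 3 samples in the labels, but the files of replicates 2 and 3 are identical across the 1978 miRNAs and were taken as 1 sample, which leaves 8 distinct libraries and n = 2 in each group. Nothing states that these came from separate cultures, so their spread may be technical. Total counts ran from 13607 to 115492 per library. The trophoblast marker miR-322-5p averaged 46054 CPM, counts per 1000000 after scaling, in paused TSC and 108477 CPM in control TSC, against 619 in paused and 675 in control ESC. The list of 8 ESC markers, 4 of which are arms of the miR-290 cluster, did not set the cell types apart: it held 32.5% to 33.7% of counts in paused TSC, 28.3% to 34.2% in control TSC, 30.8% to 33.2% in paused ESC and 31.5% to 33.7% in control ESC. Its 4 other members (miR-302a-3p, miR-302b-3p, miR-302d-3p and miR-367-3p) were all at 0 in paused TSC, and of these miR-367-3p was at 0 in control TSC and miR-302a-3p in paused ESC.

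The miR-290 cluster is a run of hairpins made from one primary transcript and is the main source of miRNA in early mouse embryonic cells. Several of its 3p arms begin with a shared seed, the stretch near the 5′ end through which a miRNA recognises its targets, and such arms are known in mouse embryonic stem cells for shortening the G1 phase and sustaining self-renewal. A hairpin can yield a product from either arm, and the arm that is kept can differ between tissues. For the cluster's 5p arms no role is described here.

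The hairpin Mir291b lies on chromosome 7 from 3219482 to 3219560 (GRCm38, plus strand), 211 bases downstream of Mir292 and 782 bases upstream of Mir293. On the opposite strand the interval falls within the last exon of Nlrp12 and within the 3′ UTR annotated for it (3218784 to 3222475). The strand used in counting is not stated in the labels. The antisense entries of the cluster, miR-290b and miR-292b, had 0 counts in all 8 libraries.

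The mature sequences of miR-291b are shown beside those of its namesake miR-291a, and of miR-294-3p, because their likeness decides which counts can be told apart. Sequences are from RefSeq (GRCm38.p6), 5′ to 3′, with the seed (bases 2 to 8) in capitals.
miR-291b-5p: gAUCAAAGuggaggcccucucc
miR-291a-5p: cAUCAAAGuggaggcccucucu
miR-291b-3p: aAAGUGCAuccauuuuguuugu
miR-291a-3p: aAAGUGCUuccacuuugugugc
miR-294-3p: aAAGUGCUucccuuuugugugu
Positions are counted from 1 at the 5′ end, with the base of miR-291b written first. miR-291b-5p differed from miR-291a-5p only at the ends, as G1C and C22U, and the 20 bases between them were the same. The 5p arms of the pair share 1 seed. miR-291b-3p differed from miR-291a-3p as A8U, U13C, U19G and U22C, so the longest stretch in common at the same positions was 7 bases. It differed from miR-294-3p at 3 of 22 positions, A8U, A12C and U19G. The change A8U lies in the seed: miR-291b-3p carries AAGUGCA, and AAGUGCU is carried by miR-291a-3p, miR-294-3p and miR-295-3p.

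In TSC both arms of miR-291b were among the abundant miRNAs. In ESC both ranked lower, and miR-291b-3p had few counts. mmu-miR-291b-3p had 533 and 382 counts in paused TSC, 1900 and 354 in control TSC, 5 and 11 in paused ESC, and 9 and 5 in control ESC. mmu-miR-291b-5p had 278 and 258 counts in paused TSC, 1244 and 188 in control TSC, 50 and 73 in paused ESC, and 25 and 18 in control ESC. By count miR-291b-3p ranked between 11 and 18 in the TSC libraries and between 125 and 227 in the ESC libraries. miR-291b-5p ranked between 17 and 24 in TSC and between 59 and 94 in ESC.

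Counts were scaled to CPM, counts per 1000000 of the library size after adjustment with TMM, a trimmed mean of log ratios between libraries. On that scale miR-291b-3p averaged 16791 ± 7410 CPM in paused TSC, 22756 ± 2048 in control TSC, 116 ± 76.2 in paused ESC and 365 ± 64.1 in control ESC (SD, n = 2 each). The order of the groups was control TSC, paused TSC, control ESC, paused ESC. The TSC groups overlapped each other, and every TSC library lay above every ESC library. miR-291b-5p averaged 9646 ± 2608 CPM in paused TSC, 13581 ± 3204 in control TSC, 876 ± 358 in paused ESC and 1145 ± 7.76 in control ESC, in the same order. A floor of 3 counts was worth 37.4 and 46.4 CPM in paused ESC and 137 and 192 CPM in control ESC, so miR-291b-3p lay within a few counts of the floor in both. In these bulk samples fewer cells that make a miRNA and less of it per cell cannot be told apart.

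**Figure D1:**
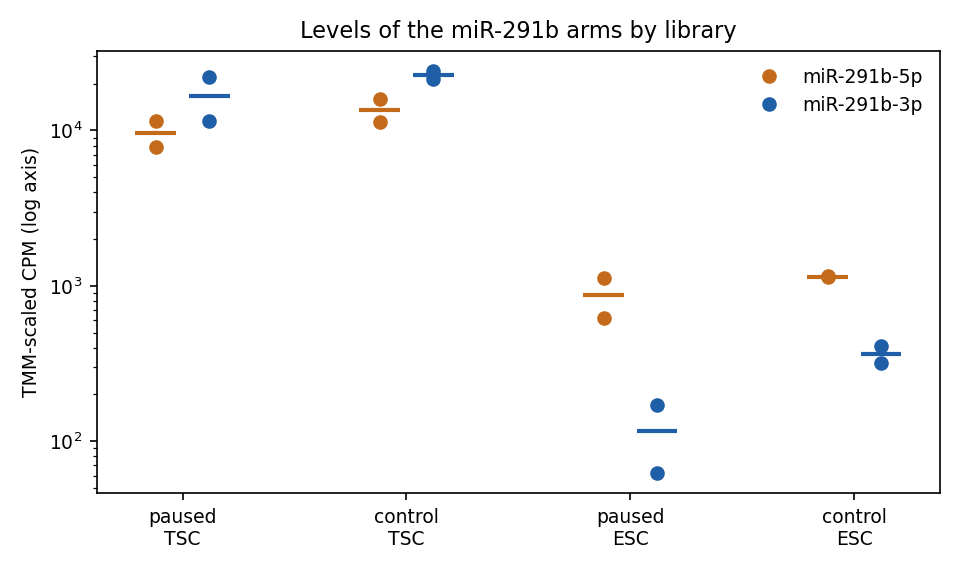
TMM-scaled CPM of miR-291b-5p and miR-291b-3p in each of the 8 distinct libraries (log axis). Points are libraries and bars are group means; miR-291b-3p lies above miR-291b-5p in the TSC groups, where it averaged 16791 CPM in paused and 22756 CPM in control cells, and below it in the ESC groups, at 116 and 365 CPM.

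The ratio of group means of miR-291b-3p was 144 for TSC over ESC among paused cells and 62.4 among control cells. The paused value rests on 5 and 11 counts in ESC and was 269 without paused ESC replicate 2; with any other 1 library left out it ran from 98.7 to 190. For miR-291b-5p the ratio was 11.0 among paused and 11.9 among control cells. On the log2 scale of the edgeR fit miR-291b-3p stood at 7.19 among paused and 5.93 among control cells, and ranked 7 and 8 of 206 tested miRNAs from the highest. miR-291b-5p stood at 3.46 and 3.57, with ranks 35 and 25. These values chose the members, and 39.3% of the tested miRNAs were called higher in TSC among paused cells and 40.8% among control cells. The other scalings moved the median miRNA in this contrast by −0.73 to −0.02 on the log2 scale.

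The 12 other tested arms of the cluster had log2 fold changes for TSC over ESC from −1.29 (miR-293-5p) to 0.53 (miR-293-3p) among paused cells, with a median of −0.57, beside −0.01 over all 206. Among control cells they ran from −1.44 (miR-290a-3p) to 0.74 (miR-291a-3p), with a median of −0.19, beside 0.23 over all 206. Its namesake miR-291a-3p averaged 77064 ± 496 CPM in paused TSC, against 63294 ± 12870 in paused ESC. In control cells it averaged 117070 ± 54136 CPM in TSC, against 69992 ± 2693 in ESC. Both arms of miR-291b thus lay above the range of the other arms made from the same cluster, as the rule that chose them required.

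**Figure D2:**
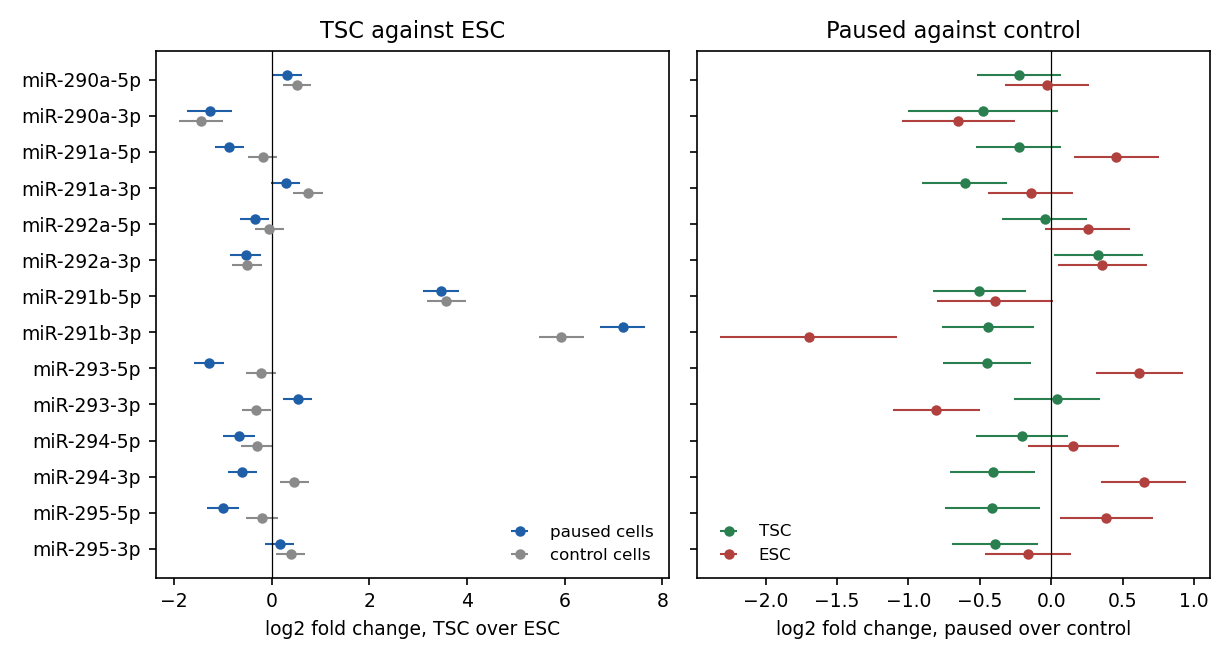
Log2 fold changes (points, edgeR fit, TMM scaling) with their SE (bars) for the 14 tested arms of the miR-290 cluster, in genome order of the hairpins. Left, TSC over ESC in paused and control cells, where miR-291b-3p (7.19 and 5.93) and miR-291b-5p (3.46 and 3.57) stand to the right of the 12 other arms; right, paused over control in TSC and ESC, where miR-291b-3p in ESC is at −1.70.

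As a share of all counts on the cluster, the arms of miR-291b together held 5.80% and 3.61% in paused TSC, 4.93% and 5.96% in control TSC, 0.114% and 0.209% in paused ESC, and 0.273% and 0.272% in control ESC. The cluster itself held 58.1% to 59.1% of all counts in paused TSC, 48.6% to 55.2% in control TSC, 65.1% to 65.3% in paused ESC and 62.1% to 64.6% in control ESC. A share within the cluster does not depend on the scaling between libraries. The shares of paused and control ESC did not overlap, and those of paused and control TSC did. The difference of the means was −0.111 percentage points in ESC (exact two-sided permutation p = 0.33, the smallest that 2 libraries against 2 can give) and −0.738 in TSC (exact permutation p = 0.67). The ESC difference was −0.0637 without paused ESC replicate 1, and −0.158 without paused ESC replicate 2. Over the 8 shares tested in this way no Benjamini-Hochberg adjusted p of the exact tests lay below 0.53.

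On pausing of ESC miR-291b-3p was lower. It had 62.3 and 170 CPM in paused ESC, against 410 and 320 CPM in control ESC. Both control libraries lay above both paused libraries. With 2 libraries against 2 such a separation can easily arise by chance, and its share over all 206 miRNAs was not counted. The log2 fold change was −1.70 ± 0.62 (SE; 95% interval −2.91 to −0.49), with an adjusted p of 0.0262 in edgeR's quasi-likelihood test over 206 miRNAs, of which 27.7% were called, 19.4% lower and 8.25% higher. It rests on 16 counts in paused and 14 in control ESC, at library sizes that were larger in paused cells (73574 and 61749, against 19266 and 13607). The ratio of pooled counts, scaled by library size after TMM adjustment, was 0.297 for paused over control (95% counting interval 0.136 to 0.656). This interval covers counting error only and not the spread between libraries. For miR-291b-5p in ESC it was 0.521 to 1.08. In TSC, where neither arm was called, it was 0.624 to 0.728 for miR-291b-3p and 0.562 to 0.687 for miR-291b-5p. The miRNA passed the filter on low counts through TSC, not through ESC.

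The call on miR-291b-3p was lost in 7 of 16 alternatives, with adjusted p-values from 0.0104 to 0.346 and a negative fold change in all 16. It stood at adjusted p = 0.0527 with DESeq2, 0.0623 when the cluster was left out of the TMM factors and 0.239 with no filter. Leaving out 1 library in the edgeR fit gave adjusted p = 0.346 without control ESC replicate 1, 0.114 without control ESC replicate 2, 0.213 without paused ESC replicate 1 and 0.0509 without paused TSC replicate 2. The fold change was −2.30 without paused ESC replicate 2.

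miR-291b-5p had 623 and 1129 CPM in paused ESC, against 1139 and 1150 CPM in control ESC. Paused replicate 2 lay just under both control libraries and paused replicate 1 well under them. The log2 fold change was −0.40 ± 0.41 (SE; 95% interval −1.20 to 0.41), and the edgeR adjusted p was 0.491. Of the 12 other tested cluster arms, 1 was called lower in paused ESC, miR-293-3p (−0.80, edgeR adjusted p = 0.0317), and 0 higher, beside 19.4% lower and 8.25% higher over all 206. Unadjusted edgeR p-values under 0.05 were found for 2 higher arms, miR-293-5p and miR-294-3p, and DESeq2 called 2 higher. The median of the 12 was 0.20, beside −0.03 over all 206.

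Of the miRNAs listed as trophoblast markers, all but miR-467a-5p were tested. In paused ESC edgeR called 2 of them lower, miR-669f-3p (−4.22) and miR-466f-3p (−4.04 on the log2 scale). Over all 206 miRNAs 19.4% were called lower and 8.25% higher. The list of 6 (miR-322-5p, miR-322-3p, miR-503-5p, miR-669f-3p, miR-467a-5p and miR-466f-3p) held 0.113% to 0.125% of counts in paused ESC, with counts on 5 of 6, against 0.888% to 1.01% in control ESC, with counts on 4 of 6. miR-467a-5p was at 0 in both groups and miR-322-3p at 0 in control ESC. The defining marker miR-322-5p averaged 619 CPM in paused and 675 CPM in control ESC, and miR-322-3p had 37.4 and 61.9 CPM in paused and 0 in control ESC. The list differed through miR-669f-3p, at 187 and 248 CPM in paused against 3783 and 4346 CPM in control ESC, and miR-466f-3p, at 212 and 201 CPM in paused against 3464 and 3451 CPM in control ESC. miR-466f-3p separated the cell types little among control cells, with 4229 and 4454 CPM in control TSC. Among paused cells it separated them, with 3472 and 3931 CPM in paused TSC. The list of 6 blood miRNAs held 0.483% to 0.569% in paused and 0.893% to 1.11% in control ESC, with miR-223-3p and miR-451a at 0 in both and miR-144-3p at 0 in control ESC. Its members went opposite ways. miR-142a-5p and miR-142a-3p passed the filter through control ESC alone, the group where they are high, and are given by level. miR-142a-5p had 312 and 170 CPM in paused ESC, against 3737 and 5752 CPM in control ESC. miR-142a-3p had 150 and 124 CPM in paused ESC, against 1641 and 2492 CPM in control ESC. miR-150-5p was called higher in paused ESC (log2 fold change 1.20, edgeR adjusted p = 0.00813), beside 8.25% higher over all 206. The part of these listed miRNAs in the result was not tested. In TSC the trophoblast list held 5.92% to 8.09% of counts in paused and 10.9% to 11.5% in control cells. Of the 6 fibroblast miRNAs listed, miR-199a-5p and miR-199a-3p were at 0 in all groups, and the list held at most 0.114% of counts in any library. Outside these lists, miR-16-5p, miR-26a-5p and miR-24-3p also had 0 counts in all 8 libraries. Why was not tested, so a count of 0 for a listed miRNA is not read as absence of a cell type.

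On pausing of TSC neither arm was called by edgeR, by DESeq2 or at an unadjusted edgeR p under 0.05. miR-291b-3p had 22030 and 11552 CPM in paused TSC, against 24204 and 21308 CPM in control TSC. Paused replicate 1 lay between the control libraries and paused replicate 2 below both. The log2 fold change was −0.44 ± 0.32 (SE; 95% interval −1.07 to 0.18; edgeR adjusted p = 0.400). miR-291b-5p had 11491 and 7802 CPM in paused TSC, against 15847 and 11316 CPM in control TSC, again with paused replicate 2 the lowest. Its log2 fold change was −0.50 ± 0.33 (SE; 95% interval −1.15 to 0.14; edgeR adjusted p = 0.327).

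The background of these TSC values was itself below 0: the median over all 206 miRNAs was −0.39, and 18.9% were called, 17.0% lower and 1.94% higher. That background moved with the processing. In place of 4 higher and 35 lower, edgeR with the total count alone called 14 higher and 12 lower, and DESeq2 2 higher and 10 lower. The total count alone raised the median miRNA in this contrast by 0.51, and with it miR-291b-3p stood at −0.01 and miR-291b-5p at −0.05. Without paused TSC replicate 2 the fold changes were 0.19 for miR-291b-3p and 0.016 for miR-291b-5p, and without control TSC replicate 1 that of miR-291b-5p was 0.01. Of the 12 other cluster arms 0 were called by edgeR and 0 by DESeq2, and 1, miR-291a-3p, had an unadjusted edgeR p under 0.05; their median was −0.31.

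The pause effect on miR-291b-3p was higher in TSC than in ESC by 1.26 ± 0.68 on the log2 scale (SE; 95% interval −0.09 to 2.60), which did not pass the test (edgeR adjusted p = 0.156, unadjusted p = 0.0666). With the total count alone it was 1.79 (adjusted p = 0.0204) and without paused ESC replicate 2 it was 2.24 (adjusted p = 0.0302); over all 15 alternatives the adjusted p ran from 0.0204 to 0.544. For miR-291b-5p the difference was −0.11 ± 0.53 (edgeR adjusted p = 0.940). In this contrast 26.2% of the tested miRNAs were called.

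The arm that held most of the counts of miR-291b was not the same in TSC and ESC. The 5p arm held 34.3% and 40.3% of miR-291b counts in paused TSC, 39.6% and 34.7% in control TSC, 90.9% and 86.9% in paused ESC, and 73.5% and 78.3% in control ESC. The exact (Clopper-Pearson) 95% binomial intervals of the single libraries, which cover counting error only, ran from 30.7% to 44.2% in TSC and from 55.6% to 97.0% in ESC. By these counts miR-291b-3p was the more abundant arm in all 4 TSC libraries and miR-291b-5p in all 4 ESC libraries. The ESC shares rest on 55 and 84 counts in paused and 34 and 23 in control ESC. In the same libraries miR-291a-5p, which matches miR-291b-5p at 20 of 22 bases, had 9558 and 5970 counts, and 1969 and 1008. The part of misplaced miR-291a-5p reads in the 5p counts, and so in the arm shares of ESC, was not tested. Since both arms entered the choice of members, no test is given between the cell types.

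In paused ESC the 5p share of miR-291b was 88.9% ± 2.83, against 75.9% ± 3.35 in control ESC (SD, n = 2 each). The groups did not overlap, and the difference was 13.0 percentage points (exact permutation p = 0.33, adjusted p = 0.53). In paused TSC it was 37.3% ± 4.27, against 37.1% ± 3.45 in control TSC, with overlap (difference 0.169, exact permutation p = 1). For paused minus control ESC, the 5p share of the other hairpins differed by 24.1 percentage points for miR-293, 10.3 for miR-291a, 5.30 for miR-295, 0.373 for miR-290a, −1.06 for miR-292a and −4.55 for miR-294, so miR-293 had the largest difference and miR-291b the next. Between the cell types the largest difference of means among the 7 hairpins was that of miR-291b, at −51.6 percentage points for TSC minus ESC in paused cells and −38.8 in control cells. Both its arms were chosen on their levels in this contrast, so its place among the hairpins is not independent of that choice. miR-293 had −29.8 in paused and 0.857 in control cells, and miR-291a had −19.5 and −14.4. The remaining hairpins ran from −10.0 (miR-295) to 2.23 (miR-292a) in paused and from −6.60 (miR-294) to 5.40 (miR-292a) in control cells.

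**Figure D3:**
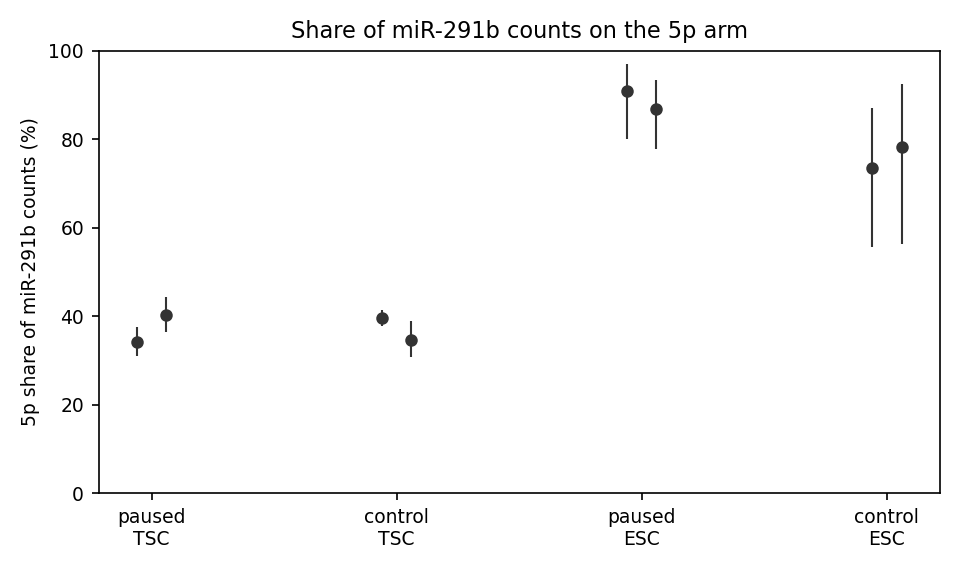
Share of miR-291b counts that fell on the 5p arm, in percent, in each distinct library, with exact 95% binomial intervals. All 4 TSC libraries lie between 34.3% and 40.3%, and the ESC libraries lie at 86.9% and 90.9% in paused and at 73.5% and 78.3% in control cells. The ESC shares rest on 84 and 55 counts in paused and 34 and 23 in control cells, and may hold misplaced miR-291a-5p reads.

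Set against miR-291a, miR-291b took a share of the pair that was larger in TSC at both arms. miR-291b-3p held 22.3% and 13.0% of the counts on miR-291a-3p plus miR-291b-3p in paused TSC, 13.5% and 21.3% in control TSC, 0.115% and 0.234% in paused ESC, and 0.599% and 0.442% in control ESC. miR-291b-5p held 15.6% and 12.7% of the 5p pair in paused TSC, 16.6% and 16.9% in control TSC, 0.520% and 1.21% in paused ESC, and 1.25% and 1.75% in control ESC. In TSC the shares of the arms overlapped, and in ESC that of the 5p arm was the higher in each library. Since 20 of 22 bases are the same in the 5p arms, a read that lacks both ends cannot be placed on one of them. How the authors treated reads that match several miRNAs is not stated in the labels, and the part of such reads in the 5p counts of ESC was not tested.

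On pausing of ESC the share of miR-291b-3p in its pair was 0.175% ± 0.0846, against 0.521% ± 0.111 in control ESC, with no overlap (exact permutation p = 0.33). The share of miR-291b-5p in its pair was 0.864% ± 0.486 in paused and 1.50% ± 0.354 in control ESC, also with no overlap (exact permutation p = 0.33). That difference, −0.640 percentage points, was −0.296 without paused ESC replicate 1, −0.984 without paused ESC replicate 2 and −0.390 without control ESC replicate 2. On pausing of TSC the 3p shares overlapped, at 17.6% ± 6.59 in paused and 17.4% ± 5.52 in control TSC (exact permutation p = 1). The 5p shares were 14.1% ± 2.08 in paused and 16.7% ± 0.227 in control TSC, with no overlap (exact permutation p = 0.33); the difference of −2.59 ran from −4.06 without paused TSC replicate 1 to −1.12 without paused TSC replicate 2.

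**Figure D4:**
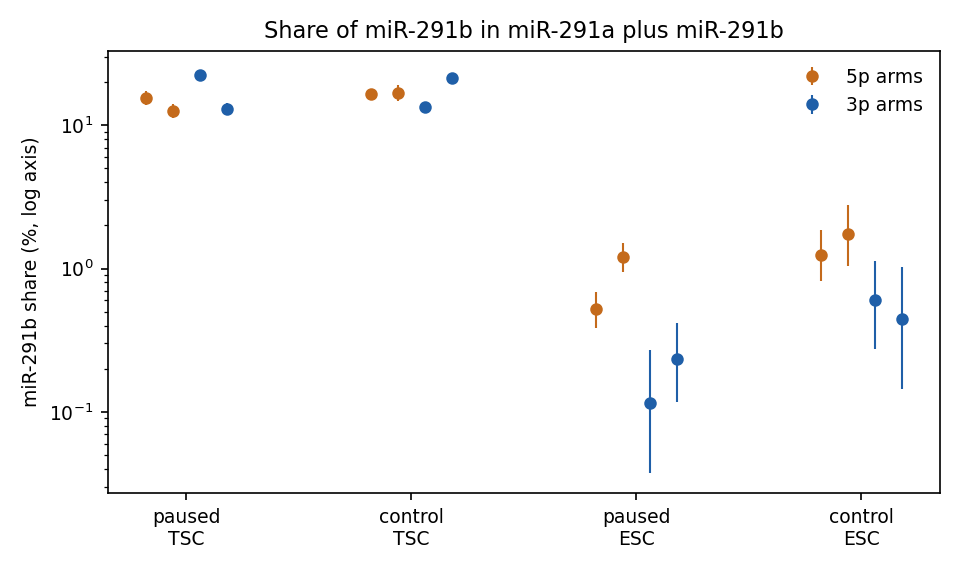
Share of miR-291b in the counts of miR-291a plus miR-291b, for 5p and 3p arms, in each distinct library (percent, log axis; bars are exact 95% binomial intervals). The TSC libraries lie between 12.7% and 22.3%, and the ESC libraries between 0.115% and 1.75%.

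The 6 bases at positions 2 to 7 of miR-291b-3p, AAGUGC, were found at the same positions in 8 of the 1679 miRNAs of the files that matched a mature sequence. The rest of the 1978 had no matched sequence and were not searched, so the list may lack members. Of these 8 miR-350-5p is the other one with the full seed AAGUGCA, and it had 0 counts. miR-291b-3p held 10.5% and 5.82% of the counts on these 8 in paused TSC, 6.77% and 10.0% in control TSC, 0.0344% and 0.0792% in paused ESC, and 0.242% and 0.167% in control ESC. Nearly all counts on these 8 in ESC fell on arms with U or C at position 8, chiefly miR-294-3p, miR-291a-3p and miR-295-3p. Of the 7 tested, miR-302b-3p and miR-302d-3p, which mark pluripotent cells, passed the filter through control ESC alone, the group where they are high, and are given by their counts: 3 and 1 pooled counts in paused ESC, against 28 and 22 in control ESC. Of the 5 others, miR-291b-3p was called lower in paused ESC and 0 were called higher by edgeR, beside 19.4% lower and 8.25% higher over all 206. At an unadjusted edgeR p under 0.05, and in DESeq2, 1 was higher, miR-294-3p. miR-302b-3p and miR-302d-3p had 0 pooled counts each in paused TSC, against 2 each in control TSC, too few for a call. Of the 5 others 0 were called in paused TSC by edgeR or DESeq2. Over all 206, edgeR called 17.0% lower and 1.94% higher. At an unadjusted edgeR p under 0.05, 1 of the 5 was lower in paused TSC, miR-291a-3p.

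Among all tested miRNAs the pattern most like that of miR-291b-3p over the 8 libraries was that of miR-291b-5p (Pearson's r of log2 CPM 0.994). Next came miR-351-5p (0.991), miR-126a-3p (0.989), miR-188-5p (0.988) and miR-33-5p (0.986). For miR-291b-5p the nearest after miR-291b-3p were miR-126a-3p (0.984), miR-322-5p (0.983), miR-503-5p (0.982) and miR-351-5p (0.980). These r values describe a split into TSC and ESC, which all these miRNAs share, over libraries of unequal depth, and are given with no test. The levels differed: miR-351-5p averaged 5223 CPM in paused TSC, 5738 in control TSC, 35.7 in paused ESC and 100.3 in control ESC, while miR-126a-3p averaged 1405, 1817, 481 and 639 CPM in the same groups.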

How the data were processed

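The deposited files hold raw counts per mature miRNA arm, made by the authors on the mouse build GRCm38, per the submitters' processing notes. Per the labels' protocols, small RNA was column-purified, and the SMARTer smRNA-seq kit was used for the libraries. The aligner, counting tool, miRNA annotation and treatment of multiply matching reads were not given in the sources used here. Files with identical values in a group were merged, which left 8 of 12 samples. edgeR 4.0.16 (R 4.3.3) was fitted to all 4 groups with TMM scaling, after filterByExpr (minimum count 10), which left 206 miRNAs holding at least 98.1% of counts. The model was quasi-likelihood with 4 residual degrees of freedom, a common dispersion of 0.0456 and infinite prior degrees of freedom, so the spread is pooled over miRNAs. Calls used a two-sided Benjamini-Hochberg adjusted p under 0.05. The script was run on simulated counts with 8-fold changes, as many up as down. That run says nothing on the calls for miR-291b. Shares were compared by exact permutation (scipy 1.17.1), and binomial intervals cover counting error only. Log2 CPM used a prior count of 2. Alternatives were DESeq2 1.42.0, 3 other scalings, no filter, all files as libraries, the compared groups alone, a replicate block and each library left out. The named miRNAs are the 2 arms, the other cluster arms, the 5 nearest per arm by Pearson's r, and the AAGUGC list. Members and lists were chosen with earlier results of these data known.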

Additional observations from a re-analysis of the deposited data

How the results depend on the processing

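Of 206 alternative values for 21 results, 159 kept their direction and their side of the threshold, stayed within 1.5 times a count or, for a ratio of group means, within 1 SD; the cause of the others was not tested. The log2 fold change of miR-291b-3p in paused against control ESC lost its call at −1.34 with TMM without the miR-290 cluster, −1.41 with no filter and −1.58 with DESeq2, and ran from −2.30 to −1.14 with 1 library left out. In TSC the effects of 1 missing library reached from −0.53 to 0.19 for miR-291b-3p and from −0.34 to 0.016 for miR-291b-5p. The difference of pause effects passed for miR-291b-3p with the total count alone (1.79) and ran from 0.89 to 2.24 with 1 library left out; for miR-291b-5p it was 0.45 with the total count alone and −0.23 to 0.54 with 1 library left out.

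miRNAs called between paused and control ESC were 57 (17 higher, 40 lower), 37 with DESeq2 and 94 with every file as a library; the split was 29 higher and 37 lower with median of ratios and 41 higher and 33 lower with TMM without the cluster. In TSC they were 39 (4 higher, 35 lower), 24 with median of ratios (6 and 18), 26 with the total count (14 and 12), 19 with TMM without the cluster (6 and 13), 16 with no filter, 12 with DESeq2, 19 with the compared groups alone, and 7 to 32 with 1 library left out. For the difference of pause effects they were 54, 30 with no filter, 24 with DESeq2, 90 with every file as a library, and 26 to 65 with 1 library left out.

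The replicate block gave 20 calls in TSC and 51 in ESC, and the adjusted p of miR-291b-3p in ESC was 0.0433 with it. The samples share only a number: the deviations of same-numbered libraries correlated at −0.0715 in ESC and −0.183 in TSC over 206 miRNAs. A block with crossed numbers of paused TSC gave 35 calls in TSC. That block, and leaving out libraries for the ratios of TSC over ESC, were chosen after seeing the data.

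For paused minus control TSC in percentage points, the 5p share of miR-291b was −1.91 with pooled counts and −2.85 to 3.19 with 1 library left out, the share of the cluster −1.83 to 0.356 with 1 left out, and the share of miR-291b-3p in its pair −2.59 with every file as a library and −4.40 to 4.93 with 1 left out. For paused minus control ESC with 1 library left out, the share of the cluster was −0.158 to −0.0637, the share of miR-291b-5p in its pair −0.984 to −0.296, and the 5p share 10.6 to 15.4. Depth limits the ESC values of miR-291b-3p, at 5 to 11 counts per library.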
